A study of Mus musculus with 7 samples.

Results

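The genes of the proteasome, 50 protein-coding genes of 39179 in the deposited table, were compared between sorted blood progenitors of mice whose floxed Jmjd1c was exposed to Cre and of control mice. The members are the genes of the table whose symbol starts with Psma, Psmb, Psmc, Psmd, Psme, Psmf or Psmg followed by a digit and which the annotation calls protein-coding, so 3 pseudogenes with such names were left out. The cells were LSK cells, which lack lineage markers and carry Sca-1 and Kit, sorted from the bone marrow of C57/BL6 mice aged 7 weeks, and their RNA was sequenced in bulk. One group, called Jmjd1c here, held 3 libraries from Jmjd1c f/f Vav1Cre animals; in these the Cre recombinase driven by the Vav1 promoter acts throughout the blood lineage on a floxed Jmjd1c. The other, called control, held 4 libraries from mice with Vav1Cre alone, so both groups carry the Cre transgene. JMJD1C belongs to the KDM3 family of JmjC-domain proteins, which act on methylated lysine of histone H3, and the comparison asks what its loss does to these cells. Since the labels do not tie libraries to animals, p-values here reflect only how the 7 libraries vary, which may be technical.

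The proteasome is the barrel-shaped protease that degrades proteins tagged with ubiquitin. Its core particle stacks rings of alpha subunits, which form the gate, around rings of beta subunits, of which some carry the proteolytic sites. A regulatory particle, made of a base with a ring of ATPases and a lid that removes ubiquitin, caps the core, where it recognises and unfolds the substrate. Blood and immune cells also express inducible beta subunits that replace the constitutive catalytic ones in the immunoproteasome, best known for making peptides for MHC class I, and alternative activators that can cap the core in place of the regulatory particle.

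By role, the 50 members were 8 alpha subunits, 7 constitutive beta subunits, 3 inducible beta subunits, 1 beta subunit of the thymus, 6 base ATPases, 3 other base subunits, 8 lid subunits, 5 activators, 1 inhibitor, 4 assembly chaperones of the core and 3 of the regulatory particle, and 1 gene, Psmc3ip, that shares the name only and encodes a partner of meiotic recombinases. Of these, 49 reached a value of at least 10 in every library and were tested. The remaining gene was Psmb11, the catalytic subunit of cortical thymic epithelium, which was at 0 in all 3 Jmjd1c libraries and in control libraries 1 and 2, and at 1 read each in control libraries 3 and 4. All values are normalized read counts, that is, reads per gene divided by a size factor of the library. The recovered reads in genes ranged from 4416762 to 6253793 in Jmjd1c libraries and from 4303712 to 6436519 in control libraries.

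Jmjd1c itself was at 294, 244 and 254 normalized read counts in Jmjd1c libraries 1 to 3, against 458, 466, 516 and 512 in control libraries 1 to 4. It fell by 0.89 ± 0.09 on the log2 scale (SE, limma, adjusted p = 0.00407). The count covers all exons, also any outside the deleted part, so the remaining level does not measure remaining function. The summed values of 12 markers of LSK cells were 33752 to 37322 in Jmjd1c libraries and 33978 to 36762 in control libraries. Jmjd1c 3 stood apart from all other libraries: Xist was at 2767 there, against 4.14 to 9.32 in the other 6. The Y-linked Ddx3y, Eif2s3y, Kdm5d and Uty were at 0 in it, where Ddx3y was at 461 to 688 in the other 6. The labels do not give sex. Xist without Y-linked reads is the female pattern and the other 6 have the male one, so sex is not balanced between the groups. Its part in the differences was not tested. For genes where Jmjd1c 3 stood out, fold changes are mostly given also without it. Control 4 stood apart in 13 macrophage and dendritic cell markers, whose sum was 3066 to 5087 in Jmjd1c libraries, 12368 in control 4 and 3298 to 4752 in the other controls. Mast cell and basophil markers summed to 2211 to 4634 in Jmjd1c libraries and 5692 to 8820 in control libraries, and neutrophil markers to 7503 to 10744 in Jmjd1c libraries and 10959 to 14596 in control libraries. Plasma and B cell markers summed to 11466, 9612 and 28856 in Jmjd1c libraries 1 to 3 and to 17509 to 23353 in control libraries, so Jmjd1c 3 was above all controls and the other Jmjd1c libraries below them. The sums of T and NK cell markers were 1947 to 2797 in Jmjd1c libraries and 2228 to 2515 in control libraries. Nkg7 made most of them, at 1545 to 2158 in Jmjd1c libraries and 1479 to 1853 in control libraries. The sums of erythroid markers were 13837 to 14685 in Jmjd1c libraries and 13520 to 15551 in control libraries. Car2 made most of these, at 12279 to 13386 in Jmjd1c libraries and 11725 to 13825 in control libraries. Both sums thus say little about the other markers of their lists. The part of these cells in the values of the proteasome genes was not tested, and in bulk RNA fewer cells of a type and less RNA per cell cannot be told apart.

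The proteasome genes were abundant and close to level between the groups. Together they took 0.891%, 0.879% and 0.895% of all values in Jmjd1c libraries 1 to 3, against 0.894%, 0.877%, 0.852% and 0.852% in control libraries 1 to 4. Of the 49 tested members 0 were higher and 0 lower in Jmjd1c past an adjusted p of 0.05 in limma, where 1.51% of the 12813 tested genes were higher and 0.289% lower. At an unadjusted p under 0.05, 5 members (10.2%) were higher and 2 (4.08%) lower, against 11.9% and 7.84% of all tested genes, so neither share was above the background. The groups did not overlap for 4 members that were higher (8.16%, against 9.74% of all tested genes) and 7 that were lower (14.3%, against 7.1%). edgeR's quasi-likelihood test on the recovered reads also called 0 members in either direction, where it called 1.54% of all genes higher and 0.281% lower. DESeq2 called 1 member higher, the lid subunit gene Psmd3, and 0 lower, where it called 3.69% of all genes higher and 0.913% lower. At an adjusted p of 0.1 limma called 2 members, Psmd3 and the activator gene Psme3, higher and 0 lower, against 4.23% and 1.36% of all tested genes.

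The intervals on these differences were narrow. The 95% interval of the fold change lay within 1.5-fold in either direction for 47 of the 49 members (95.9%), against 62.3% of all tested genes, and the exceptions were Psmd3 and the low-level testis variant Psma8. It lay within 1.2-fold for 26 members (53.1%), against 15.7% of all tested genes. Values of abundant genes vary less between libraries, so genes of like level were also set side by side. Among genes with a mean value of 500 to 2000, the interval lay within 1.5-fold for 33 of 33 members and for 93.4% of all 2179 tested genes at that level, and within 1.2-fold for 26 members (78.8%) and 48.4% of all genes. The SD within groups, on the log2 scale, had a median of 0.0621 for the 33 members and 0.0923 for all genes at that level. The median log2 fold change was 0.02 over the 49 members and -0.01 over all tested genes, with 28 members above 0 and 21 below.

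**Figure D1:**
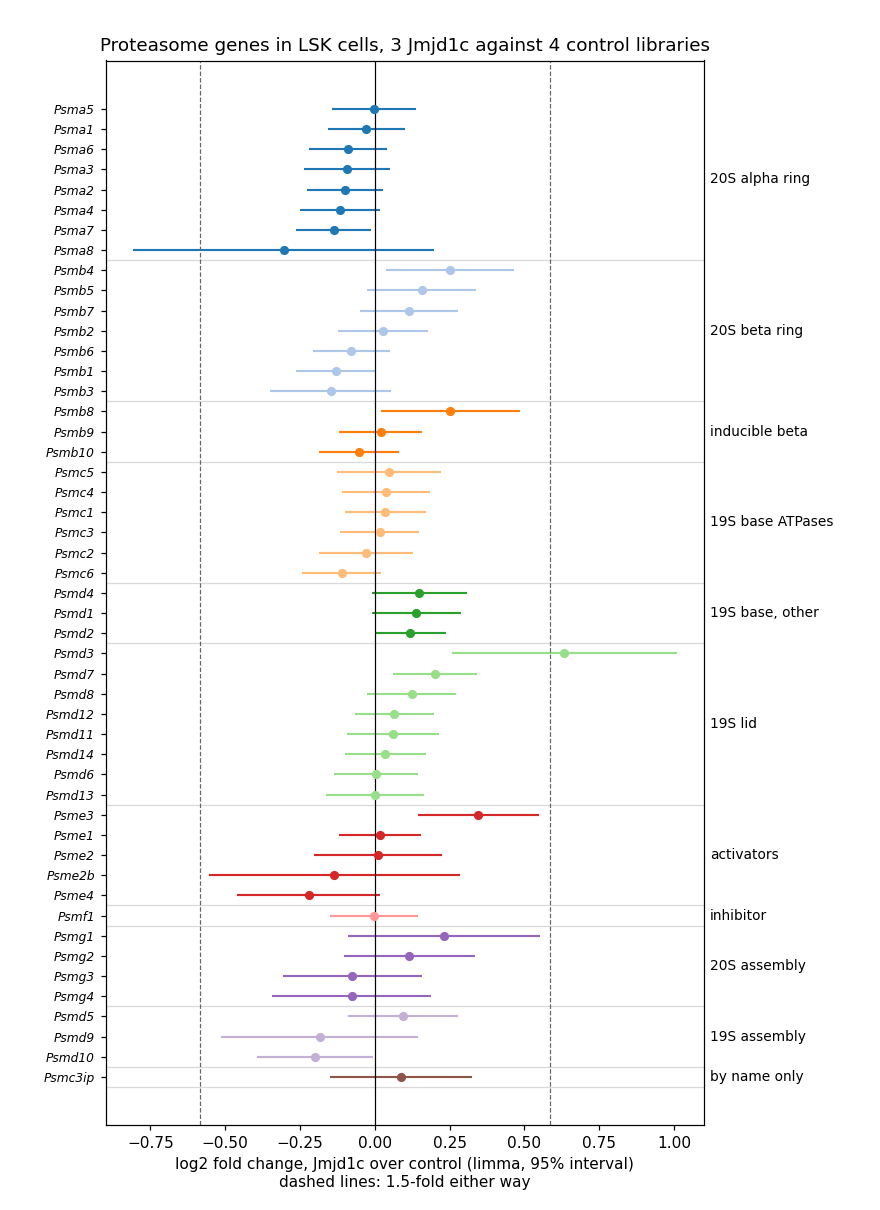
Log2 fold change (x axis, Jmjd1c over control, limma on log2(value + 1)) with its 95% interval for each of the 49 tested proteasome genes, grouped by role on the y axis. Dashed lines mark 1.5-fold in either direction, and only the intervals of Psmd3 and Psma8 cross one. Point estimates of all 8 alpha subunits lie below 0 and those of all 8 lid subunits shown above 0. The lid subunit Sem1, outside the name rule, is not shown.

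The alpha ring, whose subunits gate the core, had its 8 fold changes all below 0, though 0 of 8 passed the test. The median log2 fold change was -0.10, and it stayed below 0 in all 21 alternatives that give it, from -0.12 without Jmjd1c 1 to -0.01 after a GC and length correction. With that correction the median was -0.007 for the alpha ring and -0.012 for all tested genes, so the ring was then not below the background. After that correction 3 members lay above 0 and 5 below; the median GC content of the alpha genes was 44.5%, against 49.8% for all tested genes. Psma7, on chromosome 2 at 180036374 to 180042433, was the most abundant member per kb of transcript, at 1910 normalized read counts, and ranked 6 of 50 per kb of merged exons, at 719. It had 2167, 1990 and 2113 normalized read counts in Jmjd1c libraries, against 2232, 2375, 2296 and 2293 in control libraries. Every Jmjd1c library was thus below every control, with a log2 fold change of -0.14 ± 0.06 and an adjusted p of 0.217 in limma. Psma4 had 1245, 1179 and 1168 normalized read counts in Jmjd1c libraries, against 1365, 1274, 1234 and 1321 in control libraries, and Jmjd1c 1 lay above control 3 (-0.12 ± 0.06, adjusted p = 0.315). Psma2 was also lower in every Jmjd1c library, at 986 to 1055, against 1069 to 1093 in control libraries (-0.10, adjusted p = 0.369). After the GC and length correction the log2 fold change was -0.09 for Psma7, -0.01 for Psma4 and -0.004 for Psma2. The other constitutive members, Psma1, Psma3, Psma5 and Psma6, had log2 fold changes between -0.09 and -0.002, with overlapping groups. Psma8, which replaces Psma7 in male germ cells, was the lowest of the ring, at 34.0 to 46.3 normalized read counts in Jmjd1c libraries and 32.4 to 55.9 in control libraries. Its interval ran from -0.81 to 0.20 on the log2 scale, so a level 1.5-fold lower cannot be told from no difference.

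The constitutive beta ring split in direction. Of its 7 genes 4 had a fold change above 0 and 3 below, and 0 passed the test, with a median log2 fold change of 0.03. That median was 0.11 after the GC and length correction and -0.01 without Jmjd1c 3. Psmb4, a structural subunit on chromosome 3, had 405, 411 and 504 normalized read counts in Jmjd1c libraries, against 377, 374, 330 and 393 in control libraries. All 3 Jmjd1c libraries were above all controls, with Jmjd1c 3 the highest (0.25 ± 0.10, limma, adjusted p = 0.191, and 0.15 without Jmjd1c 3). Psmb1, another structural subunit, had 1859, 1843 and 1674 normalized read counts in Jmjd1c libraries, against 2027, 1919, 1978 and 1912 in control libraries. It was below every control in every Jmjd1c library, and lowest in Jmjd1c 3 (-0.13 ± 0.06, adjusted p = 0.265, and -0.08 without that library). Psmb3 was at 587 to 721 in Jmjd1c libraries and 698 to 843 in control libraries (-0.15, adjusted p = 0.399, and -0.06 without Jmjd1c 3), and the log2 fold change of Psmb2 was 0.03, or -0.01 if Jmjd1c 3 was left out.

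Summed over the alpha ring and the constitutive beta ring, the core particle genes reached 16301, 15372 and 15812 normalized read counts in Jmjd1c libraries, against 16882, 16488, 16081 and 16765 in control libraries. The mean sum was 15828 ± 465 in Jmjd1c libraries and 16554 ± 356 in control libraries (SD, n = 3 and 4), a difference of -4.38%, and the groups overlapped through Jmjd1c 1 and control 3. Such sums are set by the most abundant genes and were not tested.

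The constitutive catalytic subunits and their inducible replacements are the pairs that tell the standard proteasome from the immunoproteasome. Psmb5 carries the chymotrypsin-like site and Psmb8 replaces it, Psmb6 carries the caspase-like site and Psmb9 replaces it, and Psmb7 carries the trypsin-like site and Psmb10 replaces it. Psmb5 had 284, 291 and 309 normalized read counts in Jmjd1c libraries, against 258, 259, 284 and 255 in control libraries. Control 3 reached the level of Jmjd1c 1, and the log2 fold change was 0.16 ± 0.08 (limma, adjusted p = 0.321, and 0.12 without Jmjd1c 3). Psmb6 had 1464, 1329 and 1430 in Jmjd1c libraries, against 1467, 1505, 1467 and 1505 in control libraries. All of its Jmjd1c libraries lay below the controls, though Jmjd1c 1 nearly met controls 1 and 3 (-0.08 ± 0.06, adjusted p = 0.477). Psmb7 had 571, 538 and 535 in Jmjd1c libraries, against 555, 491, 477 and 505 in control libraries, with overlap (0.11 ± 0.08, adjusted p = 0.423, and 0.19 after the GC and length correction).

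Psmb5 and Psmb6 are among the proteasome genes whose sequence just before the start holds an antioxidant response element. This motif is bound by NFE2L1 and NFE2L2, of which NFE2L1 is known to raise proteasome genes when proteasome activity is short. Psmb5 and Psmb6 are shown because they encode catalytic sites and because the genes of both factors were measured here. The windows are from RefSeq on GRCm38.p6, on the strand of the gene and 5′ to 3′, with the element, TGACNNNGC on either strand, in capitals. The Psmb5 window covers chr14:54618023-54618245 on the minus strand and the Psmb6 window chr11:70525107-70525356 on the plus strand.
Psmb5: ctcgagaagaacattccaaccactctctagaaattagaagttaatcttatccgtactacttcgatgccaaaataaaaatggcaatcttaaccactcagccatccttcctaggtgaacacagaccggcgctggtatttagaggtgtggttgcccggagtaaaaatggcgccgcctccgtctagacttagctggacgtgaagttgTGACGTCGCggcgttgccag
Psmb6: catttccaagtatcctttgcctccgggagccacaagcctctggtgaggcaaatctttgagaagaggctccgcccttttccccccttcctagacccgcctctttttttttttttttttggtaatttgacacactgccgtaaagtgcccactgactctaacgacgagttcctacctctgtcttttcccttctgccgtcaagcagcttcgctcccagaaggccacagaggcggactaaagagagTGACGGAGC
Of the 42 members with a window in the RefSeq table, 5 (Psmb5, Psmb6, Psmc6, Psmd12 and Psmd9) held the element in the 250 bases before the start, which is 11.9%, against 10.2% of all 32851 windows. The interferon-stimulated response element core, GAAANNGAA, was found in 3 members (7.14%, against 7.13% of all windows), and the STAT element, TTCNNNGAA, in 2, Psmb8 and Psmg1 (4.76%, against 7.02%). Shares of members with a motif were thus close to those of all windows, and a match of letters is a description of these windows only. Members were counted by gene, over 45 windows, and the background by window, so the 2 kinds of share are not fully alike.

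Among the inducible subunits, Psmb8 was the most abundant. It lies on chromosome 17 at 34197721 to 34201454, in the MHC class II region beside Psmb9 and the peptide transporter genes Tap1 and Tap2. Psmb8 had 2208, 1998 and 2890 normalized read counts in Jmjd1c libraries, against 1945, 2007, 1836 and 2068 in control libraries. Only Jmjd1c 1 and Jmjd1c 3 were above all controls, and Jmjd1c 2 lay between control 1 and control 2. The log2 fold change was 0.25 ± 0.11 (limma, adjusted p = 0.221), and it was 0.10 without Jmjd1c 3. Tap2, named after its values were seen, was highest in the same library, at 1023, 1222 and 2645 in Jmjd1c libraries 1 to 3, against 761, 1010, 812 and 909 in control libraries 1 to 4. The log2 fold change of Tap2 was 0.78, and 0.36 without Jmjd1c 3. The annotation has Psmb8 sharing 14.7% of its exon bases with the predicted gene Gm20496, so its count is uncertain to that extent. Psmb9 had 1062, 1089 and 1086 in Jmjd1c libraries, against 986, 1073, 1119 and 1083 in control libraries. Its Jmjd1c values lay inside the range of the controls (0.02 ± 0.06, adjusted p = 0.889), and the interval ran from -0.12 to 0.16 on the log2 scale. Psmb10 had 901, 940 and 928 in Jmjd1c libraries, against 958, 986, 909 and 977 in control libraries, with overlap through control 3 (-0.05 ± 0.06, adjusted p = 0.667).

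Per kb of transcript, Psmb8 was 4.295, 3.80 and 5.17 times as abundant as Psmb5 in Jmjd1c libraries 1 to 3, against 4.17, 4.27, 3.56 and 4.47 times in control libraries 1 to 4. The mean ratio was 4.42 ± 0.69 in Jmjd1c libraries and 4.12 ± 0.39 in control libraries (SD). The ratio depended on the length used, and over merged exons it was 2.13 ± 0.33 in Jmjd1c libraries and 1.98 ± 0.19 in control libraries. The higher Jmjd1c mean rested on Jmjd1c 3. Jmjd1c 1 and 2 lay on either side of the control mean and within the control range. The same held over merged exons, at 2.07 and 1.83 in Jmjd1c 1 and 2. Psmb9 was at 0.453 ± 0.028 of Psmb6 per kb of transcript in Jmjd1c libraries and 0.423 ± 0.022 in control libraries. Psmb10 was at 1.49 ± 0.083 times Psmb7 in Jmjd1c libraries and 1.68 ± 0.11 times in control libraries. In each of the 3 pairs the ratios of the groups overlapped, and both the inducible and the constitutive member of every pair were expressed in all 7 libraries.

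**Figure D2:**
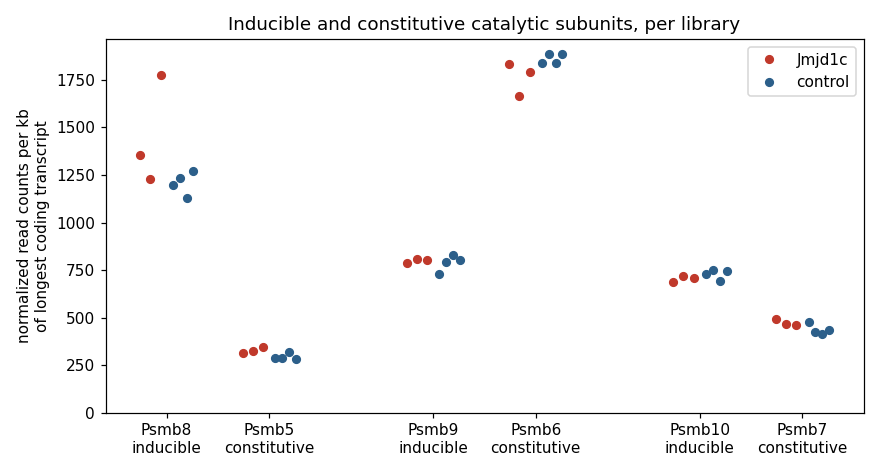
Normalized read counts per kb of the longest coding transcript (y axis) for the 3 inducible catalytic subunits and their constitutive counterparts (x axis), 1 point per library, Jmjd1c in red and control in blue. Psmb8 lies above Psmb5 and Psmb9 below Psmb6 in every library, and Jmjd1c 3 is the single high point of Psmb8.

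The base of the regulatory particle holds a ring of 6 ATPases that unfold the substrate and thread it into the core. Their median log2 fold change was 0.03, with 4 genes above 0 and 2 below, and 0 passed the test. Psmc6 had 972, 963 and 903 normalized read counts in Jmjd1c libraries, against 1039, 996, 1011 and 1042 in control libraries. It was below every control in every Jmjd1c library (-0.11 ± 0.06, limma, adjusted p = 0.326), and after the GC and length correction its value was 0.03. Its transcript has the lowest GC content of the tested members, 37.0%. Psmc5 had 827, 847 and 827 in Jmjd1c libraries, against 860, 838, 699 and 841 in control libraries, where control 3 was low (0.05 ± 0.08, adjusted p = 0.781, and -0.02 without control 3). Levels per kb of transcript ran from 443 for Psmc6 to 929 for Psmc1, over genes whose products are incorporated in equal number. Per kb of merged exons they ran from 194 for Psmc2 to 765 for Psmc1, so the range and the lowest gene depended on the length used.

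The other base subunits are Psmd1 and Psmd2, the large scaffolds that hold ubiquitin-binding shuttles and receptors, and Psmd4, a ubiquitin receptor. All 3 had fold changes above 0, with a median of 0.14 that ranged over the alternatives from 0.10 to 0.19, and 0 of 3 passed the test. Psmd2 had 1973, 2058 and 2042 normalized read counts in Jmjd1c libraries, against 1836, 1921, 1874 and 1826 in control libraries. Every Jmjd1c library was above every control (0.12 ± 0.05, limma, adjusted p = 0.257). Psmd4 had 769, 839 and 882 in Jmjd1c libraries, against 698, 791, 753 and 751 in control libraries, with Jmjd1c 1 below control 2 (0.15 ± 0.07, adjusted p = 0.285, and 0.10 without Jmjd1c 3). Psmd1 was at 1279 to 1431 in Jmjd1c libraries and 1184 to 1345 in control libraries (0.14, adjusted p = 0.29).

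The lid, which removes ubiquitin chains from the substrate, held the largest fold change among the members. All 8 lid genes had a fold change above 0, with a median of 0.06 that ranged over the alternatives from 0.05 to 0.10, and 0 passed the test in limma. After the GC and length correction 7 lay above 0 and 1 below. Psmd3, a scaffold subunit of the lid, lies on chromosome 11 at 98682554 to 98695979. It had 156, 226 and 261 normalized read counts in Jmjd1c libraries, against 141, 161, 114 and 128 in control libraries. Jmjd1c 2 and Jmjd1c 3 were above all controls, and Jmjd1c 1 lay below control 2. The log2 fold change was 0.63 ± 0.17, a fold of 1.55 with a 95% interval of 1.19 to 2.01 (limma, adjusted p = 0.0821). DESeq2 put it at 0.65 with an adjusted p of 0.0162, and edgeR at 0.65 with an adjusted p of 0.0809. Without Jmjd1c 1 it rose by 0.84 (limma, adjusted p = 0.0157), and without Jmjd1c 3 the value was 0.48 (adjusted p = 0.276). After the GC and length correction it was 0.48 too. Psmd3 had the highest transcript GC content of the tested members, 58.3%. It was also the least abundant lid gene, at 78.9 normalized read counts per kb of transcript, against 303 to 860 for the other 7.

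Psmd7, the inactive partner that forms a dimer with the deubiquitinase of the lid, had 1433, 1444 and 1528 normalized read counts in Jmjd1c libraries, against 1369, 1201, 1274 and 1270 in control libraries. All Jmjd1c libraries lay above all controls (0.20 ± 0.06, a fold of 1.15 with a 95% interval of 1.04 to 1.27, limma, adjusted p = 0.123). Without Jmjd1c 3 the log2 fold change was 0.17. Psmd14, the deubiquitinase itself, was at 1200 to 1327 in Jmjd1c libraries and 1179 to 1261 in control libraries (0.03, adjusted p = 0.791). Of the structural subunits, Psmd8 had a log2 fold change of 0.12 (adjusted p = 0.335, and 0.07 without Jmjd1c 3), Psmd12 and Psmd11 both had 0.06, and Psmd6 and Psmd13 were at 0.00, with overlapping groups in each.

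Summed over base and lid, the regulatory particle genes reached 18840, 18886 and 18898 normalized read counts in Jmjd1c libraries, against 18465, 17970, 17635 and 18004 in control libraries. The mean was 18874 ± 30.3 in Jmjd1c libraries and 18018 ± 341 in control libraries (SD, n = 3 and 4), a difference of 4.75%, and every Jmjd1c library was above every control. Adrm1 and Sem1, subunits outside the name rule, are not in these sums and counts, and had log2 fold changes of 0.35 and -0.19. Of the 17 genes 15 had a fold change above 0 and 2 below, with a median of 0.05. That split was 15 and 2 after the GC and length correction as well. Of the 15 core particle genes 4 lay above 0 and 11 below, with a median of -0.09, and after the same correction the split was 7 and 8 with a median of -0.004. Genes of one complex share libraries and are not independent, and the difference between the particles was not tested.

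**Figure D3:**
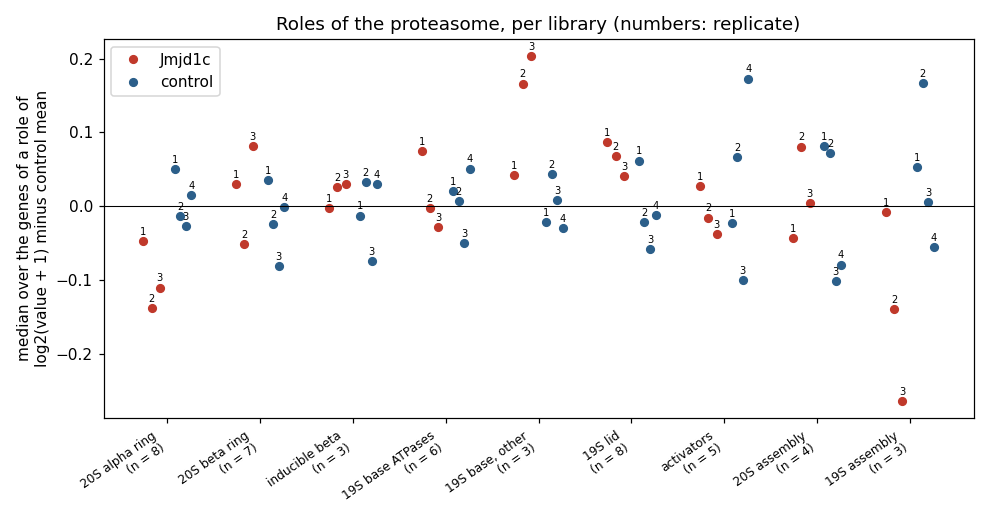
Median over the genes of each role (x axis, number of genes in brackets) of log2(value + 1) minus the control mean (y axis), 1 point per library, with Jmjd1c in red at the left and control in blue at the right. The Jmjd1c points of the alpha ring lie at -0.14 to -0.05 and those of the other base subunits at 0.04 to 0.20, and in every role but the alpha ring the groups overlap.

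Activators open the gate of the core without a need for ubiquitin. Psme3, whose product forms the nuclear activator ring, had the smallest p-value of all members. It lies on chromosome 11 at 101316213 to 101323537 and had 420, 453 and 464 normalized read counts in Jmjd1c libraries, against 408, 333, 326 and 338 in control libraries. Each Jmjd1c library was above each control, and control 1 came close to Jmjd1c 1. The log2 fold change was 0.35 ± 0.09, a fold of 1.27 with a 95% interval of 1.104 to 1.46 (limma, adjusted p = 0.0786). DESeq2 gave an adjusted p of 0.0622 and edgeR one of 0.0919, and no alternative at the threshold of 0.05 called it (adjusted p of 0.0534 to 0.274 over the alternatives). The log2 fold change was 0.32 without Jmjd1c 3 and 0.34 after the GC and length correction. The window before its start, chr11:101315963-101316212 on the plus strand of GRCm38.p6 in RefSeq, is printed with an NF-Y box (CCAAT, here on the minus strand) and an E-box, CACGTG, in capitals.
Psme3: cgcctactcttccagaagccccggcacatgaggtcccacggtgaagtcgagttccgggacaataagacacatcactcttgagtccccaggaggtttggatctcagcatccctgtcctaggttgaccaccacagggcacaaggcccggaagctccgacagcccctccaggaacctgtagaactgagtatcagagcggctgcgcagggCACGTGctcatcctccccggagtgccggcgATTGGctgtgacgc
The NF-Y box was in the 250 bases before the start of 15 of 42 members (35.7%, against 33.8% of all windows) and the E-box in 4 (9.52%, against 6.02%), and Psme3 alone of the members held both.

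Psme1 and Psme2, the paired subunits of the interferon-inducible activator that works with the immunoproteasome, had fold changes close to 0. Psme1 had 1867, 1861 and 1832 normalized read counts in Jmjd1c libraries, against 1890, 1967, 1723 and 1757 in control libraries (0.02 ± 0.06, limma, adjusted p = 0.91). Psme2 had 998, 930 and 916 in Jmjd1c libraries, against 854, 985, 833 and 1116 in control libraries (0.01 ± 0.10, adjusted p = 0.964). For both, the Jmjd1c libraries lay within the range of the controls, and the sign of the fold change turned in some alternatives. Psme2b, an intronless copy of Psme2, was at 79.8 to 103 in Jmjd1c libraries and 81.6 to 129 in control libraries (-0.14, adjusted p = 0.732), and its count is uncertain where reads match both genes, which was not tested. Psme4, a large nuclear activator known for degrading acetylated histones, had 141, 136 and 149 normalized read counts in Jmjd1c libraries, against 163, 150, 166 and 187 in control libraries. Its Jmjd1c libraries lay below all controls though Jmjd1c 3 and control 2 nearly met (-0.22 ± 0.11, adjusted p = 0.291, and -0.16 without control 4). Psmf1, a proline-rich inhibitor of the core, had 497, 509 and 528 in Jmjd1c libraries, against 518, 532, 506 and 495 in control libraries, with a log2 fold change of -0.003 ± 0.067 (adjusted p = 0.985) and an interval of -0.15 to 0.14.

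**Figure D4:**
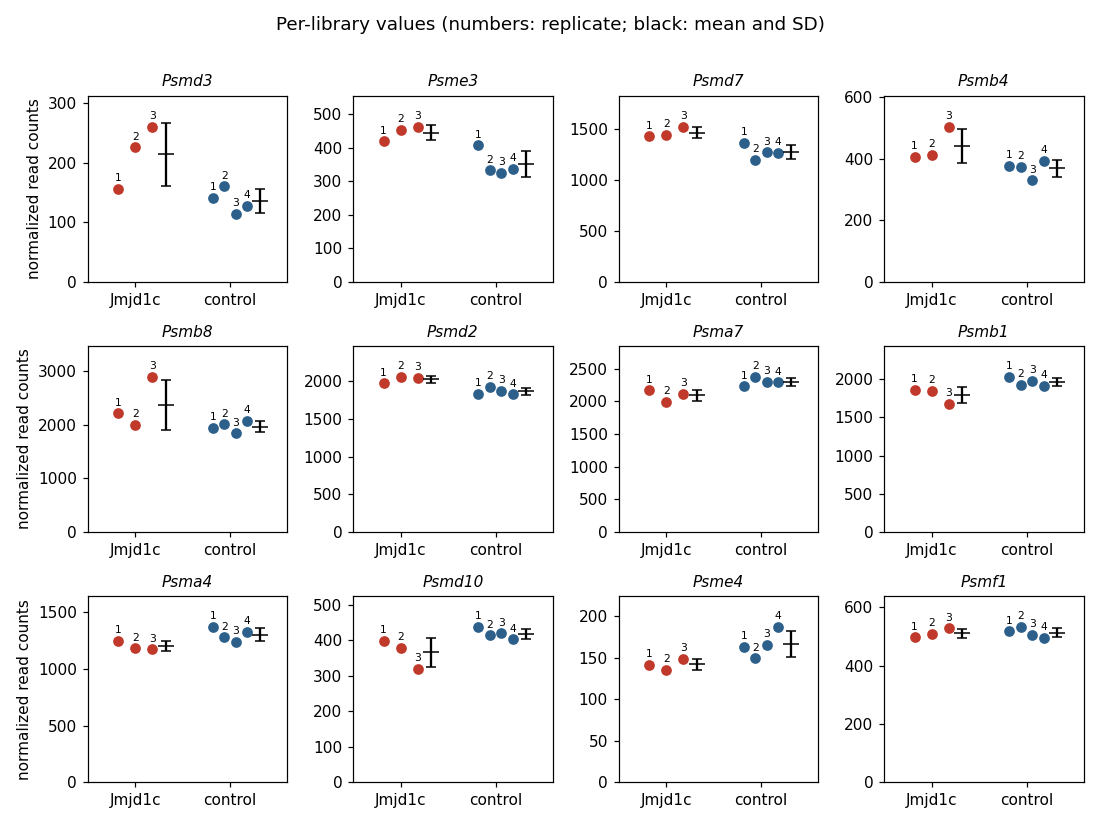
Normalized read counts (y axis) of 12 proteasome genes in each library, numbered by replicate, with Jmjd1c in red at the left and control in blue at the right of each panel and the mean ± SD in black. Psme3, Psmd7, Psmb4 and Psmd2 have all Jmjd1c libraries above all controls, Psma7, Psmb1, Psmd10 and Psme4 have them below, and Psmd3, Psmb8, Psma4 and Psmf1 overlap.

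The assembly chaperones Psmg1 to Psmg4 build the alpha ring, and they lay at 149 to 344 normalized read counts per kb of transcript. Psmg1 had 141, 168 and 203 normalized read counts in Jmjd1c libraries, against 146, 173, 126 and 135 in control libraries, where Jmjd1c 3 alone was above all controls (0.23 ± 0.15, limma, adjusted p = 0.407, and 0.10 without Jmjd1c 3). Psmg2, its partner, had 468, 489 and 441 in Jmjd1c libraries, against 509, 374, 416 and 431 in control libraries (0.12 ± 0.10, adjusted p = 0.555, and 0.19 after the GC and length correction). Psmg3 had 153, 147 and 155 in Jmjd1c libraries, against 151, 156, 182 and 153 in control libraries (-0.08 ± 0.11, adjusted p = 0.729). Psmg4, which pairs with Psmg3, had 148, 165 and 164 in Jmjd1c libraries, against 185, 191, 150 and 150 in control libraries (-0.08 ± 0.12, adjusted p = 0.761, and -0.01 after that correction). The groups overlapped in all 4.

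Of the chaperones of the regulatory particle, which hold ATPases until the base is complete, Psmd10 on the X chromosome had 398, 379 and 319 normalized read counts in Jmjd1c libraries, against 437, 414, 420 and 402 in control libraries. Every Jmjd1c library lay below every control, and Jmjd1c 3, the library with Xist, was the lowest. The log2 fold change was -0.20 ± 0.09 (limma, adjusted p = 0.241), and it was -0.11 without Jmjd1c 3 and -0.09 after the GC and length correction. Psmd9 had 183, 150 and 153 in Jmjd1c libraries, against 138, 215, 199 and 191 in control libraries, with control 1 the lowest of all (-0.19 ± 0.15, adjusted p = 0.521). The annotation has 25.5% of its exon bases in common with Gm26745. Psmd5 was at 1056 to 1205 in Jmjd1c libraries and 950 to 1192 in control libraries (0.09, adjusted p = 0.571, and 0.05 without Jmjd1c 3). Psmc3ip, the member by name only, was at 194 to 238 in Jmjd1c libraries and 191 to 230 in control libraries, with a log2 fold change of 0.09.

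Fold change moved with base composition among the members. Across the 49 genes the log2 fold change and the transcript GC content had a Pearson correlation of 0.405 and a Spearman correlation of 0.325, given as a description, since the genes share all 7 libraries. Psmc6, at 37.0% GC, and Psmd3, at 58.3%, form the ends of the range.

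**Figure D5:**
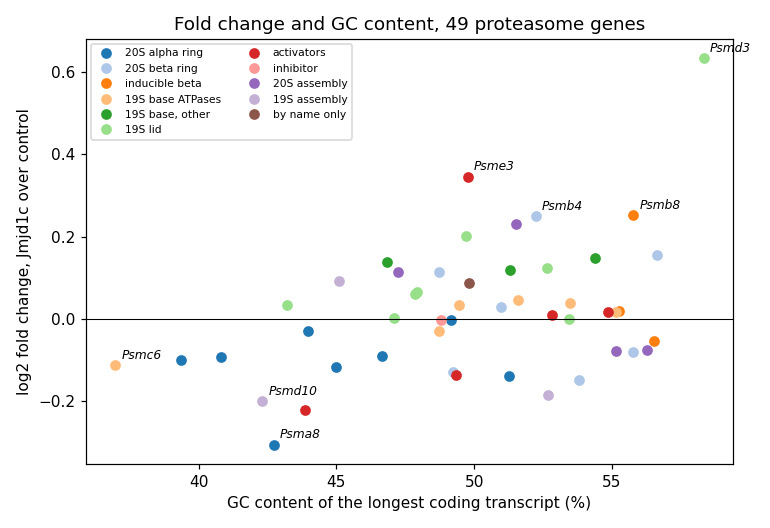
Log2 fold change (y axis, Jmjd1c over control) against GC content of the longest coding transcript (x axis, %) for the 49 tested proteasome genes, coloured by role. The alpha genes lie mostly at low GC content with values below 0, and Psmd3 is the highest point at the highest GC content.

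Outside the members, 33 further genes of the ubiquitin-proteasome pathway were found and 32 tested, with 0 higher and 0 lower in Jmjd1c past the threshold in limma. At an unadjusted p under 0.05, 7 were higher and 4 lower; edgeR called 0 and DESeq2 called 4 higher (Fbxo7, Vcp, Bag6 and Uba1) and 0 lower. Over all tested genes the shares were 11.9% higher and 7.84% lower at an unadjusted p under 0.05, and 3.69% higher in DESeq2. The shares of the 32 genes were above each of these, and that excess was not tested. Fbxo7 was high in Jmjd1c 3, at 827 normalized read counts, against 468 and 460 in the other Jmjd1c libraries and 384 to 418 in control libraries, and its log2 fold change was 0.48 with that library and 0.20 without it. The median log2 fold change of the 32 was 0.05. Nfe2l1, the factor that raises proteasome genes when the protease is inhibited, had 337, 394 and 423 normalized read counts in Jmjd1c libraries, against 365, 305, 350 and 272 in control libraries. Its groups overlapped, at 0.25 ± 0.12 (limma, adjusted p = 0.254, 0.18 without Jmjd1c 3 and 0.15 after the GC and length correction). Nfe2l2, the regulator of the antioxidant response, had 1019, 992 and 991 in Jmjd1c libraries, against 942, 929, 904 and 1070 in control libraries (0.06 ± 0.07, adjusted p = 0.669). Pomp, the maturation factor of the beta ring, had 1138, 1152 and 1178 in Jmjd1c libraries, against 1174, 1160, 1248 and 1350 in control libraries (-0.09 ± 0.07, adjusted p = 0.48).

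The smallest p-values of that list were those of Vcp, the ATPase that extracts ubiquitin-tagged proteins from membranes and complexes, and Uba1, the enzyme that activates ubiquitin. Vcp had 1276, 1465 and 1547 normalized read counts in Jmjd1c libraries, against 1150, 1174, 1146 and 1188 in control libraries, with no overlap (0.29 ± 0.07, limma, adjusted p = 0.0602, DESeq2 adjusted p = 0.0155). Without Jmjd1c 3 the log2 fold change of Vcp was 0.23. Uba1 had 2090, 2344 and 2281 in Jmjd1c libraries, against 1984, 1882, 1860 and 1744 in control libraries, with no overlap (0.26 ± 0.07, limma, adjusted p = 0.0634, DESeq2 adjusted p = 0.0169). Adrm1 and Sem1, subunits of the regulatory particle, lie outside the name rule and are given for completeness, chosen after their values were seen. Adrm1, a ubiquitin receptor, was at 329, 399 and 379 in Jmjd1c libraries, against 297, 273, 256 and 334 in control libraries (0.35 ± 0.11, adjusted p = 0.114, and 0.15 after the GC and length correction). Sem1, the small lid subunit, was at 1139, 991 and 1064 in Jmjd1c libraries, against 1224, 1204, 1277 and 1160 in control libraries (-0.19 ± 0.07, adjusted p = 0.152, and -0.02 after that correction). For Sem1 every Jmjd1c library was below every control, and for Adrm1 the groups overlapped.

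Of the 11 genes that induce the immunoproteasome or use its peptides, 0 passed the threshold in limma and in edgeR in either direction. At an unadjusted p under 0.05, 4 were higher and 0 lower, against 11.9% and 7.84% of all tested genes. DESeq2 called Tap1 and Tapbp higher and 0 lower, against 3.69% of all tested genes higher. The shares higher were thus above those of all tested genes, over 11 genes only, and that excess was not tested. Tapbp, which bridges MHC class I to the transporter, had 2032, 2334 and 2356 normalized read counts in Jmjd1c libraries, against 1594, 1825, 1739 and 1957 in control libraries (0.33 ± 0.08, limma, adjusted p = 0.0579, and 0.20 after the GC and length correction). Tap1 had 1108, 1280 and 1513 in Jmjd1c libraries, against 798, 1020, 816 and 1088 in control libraries (0.48 ± 0.13, adjusted p = 0.071, and 0.37 without Jmjd1c 3). In both genes all Jmjd1c libraries lay above all controls. Both were called in limma without control 4, with adjusted p-values of 0.0357 for Tapbp and 0.036 for Tap1. The share of all tested genes called without control 4 is not given here. In limma 0 genes of the list were called without Jmjd1c 3 or after the GC and length correction. Psmb9, which shares 5.79% of its exon bases with Tap1 on the opposite strand, stayed at 0.02. For the interferon factor gene Irf1 limma gave a log2 fold change of 0.01 and an adjusted p of 0.937.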

How the data were processed

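Per the labels' protocols, Trizol RNA was amplified with a SMARTer ultra-low-input kit and prepared for paired-end Illumina sequencing. The table deposited by the authors holds a signal per gene. Tools named in the submitters' processing notes are DESeq 1.18.0, HTSeq 0.6.1p1, Trim Galore 0.2.8 and STAR, with the build mm10. Which annotation, strand setting and filters were used is not given in the sources used here, so reads of overlapping genes on opposite strands may not be separated. In each column the deposited signal was a whole multiple of 1 step, as for counts divided by a size factor, and dividing by it gave whole reads for 100% of values within 0.01 of a read. Symbols were found for 37693 of 39179 gene IDs. Positions, transcript lengths and GC content came from a GENCODE annotation on GRCm38, the same assembly as mm10.

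The test was limma-trend (limma 3.58.1, R 4.3.3) on log2(value + 1), two-sided and without covariates, for 3 Jmjd1c against 4 control libraries. A gene was tested if at least 3 libraries reached a value of 10, which gave 12813 genes, and p-values were adjusted over these by Benjamini-Hochberg with a threshold of 0.05. Fold changes of low genes are understated on this scale. Errors are SEs beside log2 fold changes and SDs beside means. The steps were tested on simulated data. Among 22 alternatives were edgeR 4.0.16 and DESeq2 1.42.0 on the recovered reads, other pseudocounts, filters, scalings and models, a GC and length correction, each library left out and the replicate block.

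The members and gene lists were chosen with earlier results of these data known. Values per library are given for Jmjd1c, the catalytic subunits, Psme1 to Psme4, the inhibitor and core assembly chaperones, in each other role for the 2 smallest p-values, and of the other lists for Nfe2l1, Nfe2l2, Pomp and the 2 smallest p-values of each. Psme2b is given as ranges only. Values of Tap2, Fbxo7, Adrm1 and Sem1 were added after they were seen.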

Additional observations from a re-analysis of the deposited data

Results flagged for a closer look

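In 7 of the 49 tested members 1 of the 4 control libraries stood apart from the other 3 by a gap past Dixon's 95% critical value, and chance flags about 1 in 20 such groups. The share flagged over all tested genes is not given, so whether the members differ from other genes in this was not tested. Jmjd1c groups of 3 libraries were not checked in this way. Psme3 was at 408 in control 1, against 326 to 338 in the other controls. Psmd11 was at 769 in control 2, against 870 to 879. Control 3 was low for Psmc5, at 699 against 838 to 860, and high for Psmg3, at 182 against 151 to 156, and for Psmb5, at 284 against 255 to 259. Control 4 was high for Psmb3, at 843 against 698 to 719, and low for Psma8, at 32.4 against 53.6 to 55.9. Without control 4 the log2 fold change of Psma8 was -0.49, against -0.30 with all libraries.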

How the results depend on the processing

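The count of 0 members higher in Jmjd1c was 1 in DESeq2 (Psmd3), 2 at an adjusted p of 0.1 (Psmd3 and Psme3) and 0 to 1 when a library was left out, where leaving out Jmjd1c 1 gave the call of Psmd3, and the count of members lower was 0 under all 22 alternatives. Of the other pathway genes 4 were higher in DESeq2 and 4 at an adjusted p of 0.1, and 0 to 4 with a library left out. Of the immunoproteasome regulators and loading genes 2 were higher in DESeq2, 2 at an adjusted p of 0.1 and 1 with array weights. Of this list 3 were higher with replicates 1 to 3 alone. The count was 0 to 3 with a library left out, with 3 without Jmjd1c 1 and 3 without control 4. For array weights, replicates 1 to 3 alone and a library left out, the share of all tested genes called is not given. Counts of the 3 lists in those settings thus have no background to be read against. With the replicate block the counts of all 3 lists were 0 in both directions and no call changed; same-numbered libraries had correlations of deviations of -0.15, -0.002 and 0.02, so the numbers are not taken to pair them. The GC and length correction moved the median of the alpha ring to -0.0066 and that of the beta ring to 0.1099; the cause of these moves was not tested. Of the 34 genes followed through the alternatives 28 kept their direction in all. The sign turned for 6. Psmb9 was at -0.0011 with the GC and length correction and at -0.0165 to 0.0445 with a library left out, lowest without control 1. Psmc5 was at -0.0216 to 0.0778 with a library left out, lowest without control 3. Psmc6 was at 0.0346 with the GC and length correction. Psme1 was at -0.0033 with the replicate block and with replicates 1 to 3 alone, and at -0.0127 to 0.0511 with a library left out. Psme2 was at -0.0005 in edgeR and -0.0027 in DESeq2, and at -0.0476 to 0.0926 with a library left out. Psmf1 was at -0.0265 to 0.0171 with a library left out. Leaving out both Jmjd1c 3 and control 4, chosen after seeing the data, left 0 members called in either direction. Intervals were widest for members with few reads, such as Psma8.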
